A study of Homo sapiens with 4 samples.

Results

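In IMR90, a line of human lung fibroblasts, RNA was compared between day 3 and day 13 after infection with a retrovirus that expresses H3.3cs1, a cleaved histone H3.3 that carries a Flag tag at its C-terminus. Poly(A) RNA-seq gave 1 library for each day, and every difference below is day 13 against day 3. All 11730 loci with a gene name and an FPKM of at least 1 at either day were compared, out of 24158 named loci in the series. FPKM counts the fragments of a transcript per kilobase of its length, relative to all fragments mapped in the library. A pair of further libraries gave the levels set beside the members. The growing cells carried an empty pBabe retroviral vector and were taken at day 13. The cells in oncogene-induced senescence (OIS) carried H-RasV12 fused to the estrogen receptor and had 8 days of 10 nM tamoxifen. All 4 cultures were at passage 16, and each group is 1 library of 1 culture. The growing library has the age of the day 13 culture, and no library of empty-vector cells at day 3 was analysed here, so the effects of the cleaved histone, of a recent infection and of time in culture cannot be told apart.

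H3.3 is a replacement variant of histone H3 that is deposited into chromatin outside of DNA replication, and proteases such as cathepsin L can cut off part of its N-terminal tail. Senescence is a lasting exit from the cell cycle in which cells stay metabolically active. It is held by CDK inhibitors acting through the RB proteins, and it often comes with loss of lamin B1, a rebuilt extracellular matrix and a changed set of secreted proteins. Fibroblasts make and cross-link most of the matrix of the lung, and their contractile and matrix genes respond to TGF-beta and to mechanical tension through YAP, TAZ and the TEAD factors.

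With 1 library a side there is no replicate check and no test, so a difference describes these libraries only. Values were set on the log2(FPKM + 1) scale, on which low values change less than in FPKM, and all folds are on that scale. A locus is said to have risen or fallen where it differed by at least 2-fold. Between 11106 and 11306 named loci per library reached 1 FPKM. Loci without a gene name took 57.9% of the summed FPKM at day 3 and between 47.4% and 49.0% in the other libraries, and their part in the differences was not tested. Depth per library is unknown, since no source used here gives read totals. HRAS stood at 3153 FPKM in the OIS library and between 41.9 and 49.8 in the others, which matches the label of that library. Genes were grouped in 46 lists by function, some of them overlapping. Members under 1 FPKM at both days, or in loci joined with another gene, are left out of the counts, and a member that passed the filter through 1 of the days only had to be higher there, so the counts describe the measured members and not the lists as a whole.

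From day 3 to day 13, 677 loci rose and 415 fell. The background share was thus 5.77% of the compared loci higher and 3.54% lower, and 10638 loci stayed within 2-fold. Every list count below is to be read beside these shares. Among the 1092 changed loci 62.0% were higher, but 37.4% (452 higher, 756 lower) after the named loci of both libraries were rescaled to the same sum, which moved the median difference of all loci from -0.043 to -0.26. Counts after this rescaling are given below as rescaled counts for the lists whose counts or split it moved most. A larger pseudocount also lowered many counts, which are given with some of the lists only. With a pseudocount of 5, G1 genes had 2 higher and 0 lower, matrix proteases 8 and 0, and the WNT system 5 and 0. Retinoic acid genes then had 1 and 0, other collagens 4 and 1, and immediate early genes and the H3.3 list 0 and 0. A change of at least 4-fold was seen in 146 loci that rose and 48 that fell. The direction depended on the level. Of the 672 loci with a mean of 100 FPKM or more, 101 rose and 6 fell, whereas of the 3459 loci with a mean between 1 and 5 FPKM, 166 rose and 208 fell. SPAG1, at 1.002 FPKM in its higher library, was the lowest locus that passed the filter, and C14orf93, at 0.999, the highest that did not. MAPK6 and ALDH3B1 lay just past 2-fold, and IFIH1 and RASL11A just under it.

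**Figure D1:**
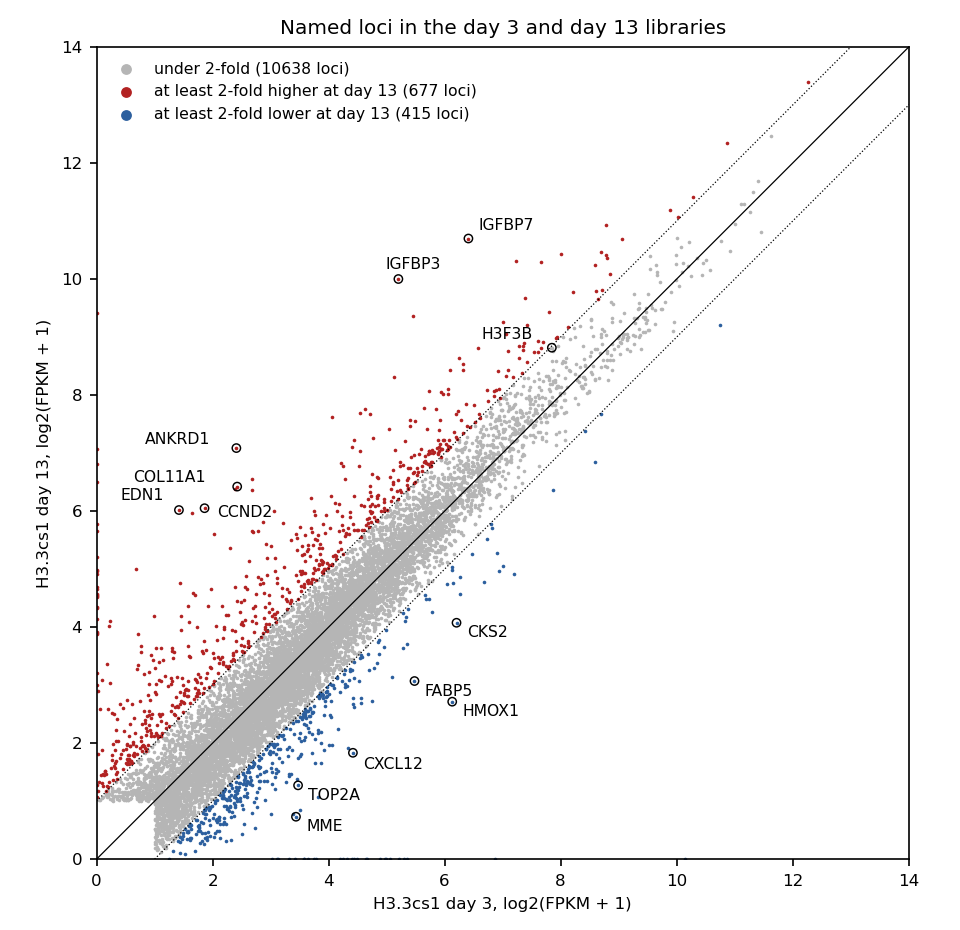
Each point is 1 of the 11730 compared loci, with its level at day 3 on the x axis and at day 13 on the y axis, both as log2(FPKM + 1). The solid line marks equal values and the dotted lines 2-fold, with the 677 loci that rose in red and the 415 that fell in blue, and the reds outnumber the blues most at high levels.

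The machinery of cell division was lower at day 13. Of 82 measured mitosis genes, 50 fell and 0 rose, with a median difference of -1.18 against -0.043 over all loci. At these low levels the count depended on the pseudocount: with 5 in place of 1 it was 5 of 82 (median -0.53), and with 0.1 it was 66. Their median level was 4.30 FPKM at day 3 and 1.20 at day 13, beside 17.3 in growing and 0.811 in OIS, so the list was already below growing at day 3. TOP2A, the topoisomerase that untangles chromosomes, fell 4.6-fold, from 10.1 to 1.41 FPKM, with 44.2 in growing and 1.25 in OIS. CKS2, a subunit bound to cyclin-dependent kinases, fell 4.38-fold, from 72.7 to 15.8 FPKM, with 107 in growing and 20.1 in OIS. UBE2C, the ubiquitin-conjugating enzyme of the anaphase-promoting complex, fell from 16.8 to 3.73 FPKM (3.77-fold). PBK, a mitotic kinase, MAD2L1, a spindle checkpoint protein, and FOXM1, the factor that drives many mitosis genes, fell 3.65-fold, 3.62-fold and 3.32-fold. Falls were found in each role: 11 of 17 cyclins and kinases, 5 of 9 genes of anaphase and exit, 10 of 19 of the kinetochore, 19 of 28 of the spindle and cytokinesis, and 5 of 9 of chromosome condensation. WEE1, which holds CDK1 inactive, had the highest difference of the list, at 0.37. In RNA of whole cultures, fewer dividing cells and less RNA per cell cannot be told apart.

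Mitosis genes share short promoter elements, and the promoters of CKS2, of the cyclin CCNB2 and of the kinase PLK1 are shown because all 3 genes fell and carry the same elements. CCNB2 went from 7.15 to 2.14 FPKM (2.6-fold) and PLK1 from 8.9 to 2.44 FPKM (2.87-fold). The sequences are from RefSeq on GRCh38.p14, written 5′ to 3′ on the strand of the gene and ending 1 base before its start. Capitals mark the CCAAT box (CCAAT or its reverse complement), which NF-Y binds, and the CHR element (TTTGAA or its reverse complement), which the DREAM and MuvB complexes bind.
CKS2, chr9:89311105-89311194, plus strand: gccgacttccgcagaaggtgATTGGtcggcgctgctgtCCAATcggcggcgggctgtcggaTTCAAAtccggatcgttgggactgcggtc
CCNB2, chr15:59105016-59105145, plus strand: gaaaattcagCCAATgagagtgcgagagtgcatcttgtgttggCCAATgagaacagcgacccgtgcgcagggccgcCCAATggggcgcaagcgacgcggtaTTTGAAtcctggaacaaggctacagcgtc
PLK1, chr16:23678799-23678888, plus strand: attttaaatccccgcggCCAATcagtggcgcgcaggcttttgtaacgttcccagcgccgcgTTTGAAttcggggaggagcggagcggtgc
In each of the 3 promoters the CHR letters began 29 bases before the start, downstream of the nearest CCAAT box. Over windows of 250 bases before to 50 after the start, on both strands, 73.2% of 41 matched promoters of mitosis genes that fell held the CHR letters, against 50% of 28 promoters of those that did not pass 2-fold and 15.4% of all 27305 promoters. The CCAAT letters were in 75.6%, 67.9% and 35.7% of the same promoters. A match is a description of the letters and not a measured site.

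DNA replication and nucleotide supply moved the same way by less. Of 61 measured members 15 fell and 0 rose, with a median difference of -0.68. With a pseudocount of 5 only 1 of 61 passed 2-fold (median -0.31), with 0.1 it was 30, and after quantile normalization 9. RRM2, the regulated subunit of ribonucleotide reductase, fell 3.31-fold, from 10.3 to 2.41 FPKM, beside 62.5 in growing and 3.74 in OIS. ASF1B, a histone chaperone of dividing cells, fell from 2.89 to 0.312 FPKM and GINS2, a subunit of the replicative helicase, from 4.55 to 1.07 FPKM. TIMELESS, of the replication fork, thymidine kinase TK1 and the helicase subunit MCM6 fell 2.33-fold, 2.29-fold and 2.19-fold. By role, 5 of 21 origin and helicase genes, 4 of 24 fork genes, 4 of 9 genes of nucleotide supply and 2 of 7 of chromatin assembly fell. After rescaling to the same sum 63 of 83 mitosis genes and 23 of 62 replication genes were lower, and 0 of either list were higher.

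Among the cyclins, CDKs and inhibitors of G1, 3 of 24 measured members rose and 2 fell (2 and 2 rescaled). CCND2, cyclin D2, a partner of CDK4 and CDK6, rose 18.2-fold, from 2.63 FPKM at day 3 to 65.2 at day 13, beside 5.07 in growing and 4.81 in OIS. Its level was thus high in the day 13 library only. CDK6 rose from 13.1 to 31 FPKM (2.28-fold). CDKN2B, the CDK4 and CDK6 inhibitor p15, rose from 4.62 to 20.5 FPKM (3.83-fold), with 3.43 in growing and 37.3 in OIS. The inhibitors best known from senescence did not pass 2-fold between the days. CDKN2A, the locus of p16 and ARF, stood at 25.3 FPKM at day 3 and 43.5 at day 13, with 18.1 in growing and 59.8 in OIS. CDKN1A, which encodes p21, stood at 612 and 859 FPKM, with 363 in growing and 1500.2 in OIS. For both genes the order from low to high was growing, day 3, day 13 and OIS. CDKN2C, the inhibitor p18, fell 2.7-fold to 0.592 FPKM, and CDKN1C, p57, fell 2.12-fold to 0.837 FPKM.

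Of 27 measured p53 targets 3 rose and 1 fell (3 and 2 rescaled), beside background shares of 5.77% higher and 3.54% lower. The median difference was -0.12, and 18 of the 27 lay below 0. GDF15, a stress cytokine, rose from 34.4 to 132 FPKM (3.75-fold), far under the 1583 of OIS. GADD45A, a growth arrest protein, rose 2.82-fold to 124 FPKM, and PMAIP1, a pro-apoptotic BH3 protein, 2.78-fold to 49.3 FPKM. BTG2, an antiproliferative target, fell 2.94-fold to 3.44 FPKM. MDM2, a ubiquitin ligase of the feedback role, differed by -0.45.

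LMNB1, which encodes lamin B1, was below growing at day 3 and fell from there. It stood at 5.03 FPKM at day 3 and 1.09 at day 13 (2.88-fold lower), against 30.8 in growing and 0.989 in OIS. With a pseudocount of 5 in place of 1 its difference was -0.72, which is under 2-fold. TMPO, the lamina-associated protein LAP2, fell 2.3-fold to 4.5 FPKM. The architectural HMG proteins HMGA1 and HMGA2, known from senescence-associated heterochromatin, went from 414 to 204 FPKM and from 110.3 to 53.7 FPKM, both just past 2-fold. SUN2, of the inner nuclear membrane, was the 1 member of 37 in the list of lamina, HMG and heterochromatin genes that rose, to 50.2 FPKM, and 4 fell, against 0 higher and 6 lower rescaled and 1 and 1 with a pseudocount of 5. None of 17 heterochromatin and Polycomb genes measured as single loci passed 2-fold, and SUZ12 came nearest at -0.97. In the same role, the locus that joins CBX5 with MIR3198-2 went from 13.7 to 6.22 FPKM (2.03-fold lower). The locus that joins BMI1 with COMMD3 differed by -0.26.

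Of the H3.3 genes, H3F3B stood at 229 FPKM at day 3 and 449.7 at day 13 (1.96-fold, just under the threshold), with 105 in growing and 90.5 in OIS. After centring on the median of all loci its difference was 1.01, just past it. H3F3A stood at 129.5 and 132 FPKM. A gene's FPKM can hold reads of the construct as well as of the endogenous gene, and the labels do not name the H3.3 gene in the construct. The H3.3 chaperones HIRA, DAXX and ATRX differed by -0.31, -0.05 and -0.19. ASF1B and DEK were the members of the list of 27 that fell, DEK from 22.9 to 10.2 FPKM. CTSL1, the gene of cathepsin L, stood at 66.4 FPKM at day 3 and 57.8 at day 13.

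Among histone genes that are normally tied to S phase, 9 of 25 measured members rose and 1 fell (5 and 2 after rescaling to the same sum), with a median difference of 0.53. With a pseudocount of 5 it was 3 and 0. HIST1H1C, which encodes linker histone H1.2, rose 6.9-fold, from 20.7 to 149 FPKM, with 25.4 in growing and 27.5 in OIS. HIST1H2AC rose to 136 FPKM (2.28-fold) and HIST1H2BC to 53.6 (2.54-fold). HIST1H3B, HIST1H4D and HIST4H4 rose from values under 1 FPKM to between 3.1 and 3.68. HIST2H3D was the member that fell, to 1.76 FPKM. Transcripts of these genes mostly lack a poly(A) tail, so a poly(A) library holds only part of them, and near-identical copies make the values of single genes uncertain.

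Binding proteins of the insulin-like growth factors (IGF) had some of the largest rises. Of 14 measured members of the IGF system 7 rose and 0 fell (7 and 1 rescaled), and all 7 were binding proteins, a protease that cuts them or an inhibitor of that protease. IGFBP3, the main carrier of IGF in serum, had the largest rise of all single-gene loci ranked, 27.8-fold. It stood at 35.8 FPKM at day 3 and 1023 at day 13, with 296 in growing and 48.8 in OIS. IGFBP7, a secreted protein linked to senescence, rose 19.5-fold, from 84 to 1661 FPKM, with 289 in growing and 257 in OIS. IGFBP2 rose 15.1-fold, from 42.6 to 657 FPKM, with 127 in growing and 62.1 in OIS. For all 3, which are among the largest rises, the day 13 library was the highest of the 4 and the day 3 library the lowest. IGFBP5 rose 6.19-fold to 1254 FPKM and IGFBP4 2.96-fold to 1322 FPKM, beside 1917 and 1342 in OIS. IGFBP6 differed by -0.46. PAPPA, the protease that cuts IGFBP4, rose 5.68-fold to 42.2 FPKM, and STC2, which blocks that protease, 3.89-fold to 258 FPKM. The receptors and their adaptors INSR, IRS1, IGF2R, IGF1R and IRS2 lay between -0.76 and 0.41. The locus that joins IGF2 with INS rose 3.42-fold, from 2.51 FPKM at day 3, beside 33.1 in growing, and its value cannot be split between those genes.

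**Figure D2:**
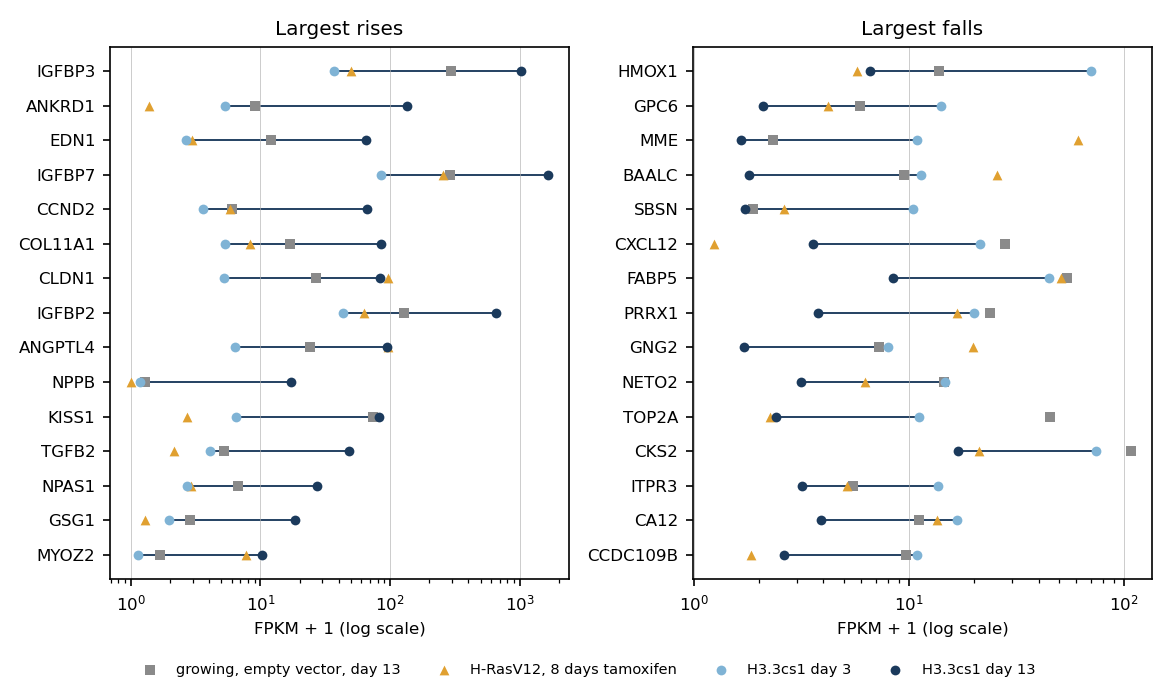
The 15 largest rises (left) and falls (right) among single-gene loci above 0 at both days and at 5 FPKM or more at the higher, as FPKM + 1 on a log axis, with a line from day 3 to day 13. Among the rises, day 13 is the highest of the 4 libraries in all but CLDN1 and ANGPTL4, where OIS is higher, and among the falls it is the lowest in all but HMOX1, CXCL12, TOP2A and CCDC109B, where OIS is lower. The genes were picked by day 13 against day 3, so an extreme day 13 level is partly built in.

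Some TGF-beta ligands and most of the measured targets rose, and no receptor or signal transducer passed 2-fold. In the list of 29 measured members 7 rose and 1 fell, with a median difference of 0.25 (0.0040 after rescaling to the same sum). TGFB2, a ligand, rose 12-fold, from 3.06 FPKM at day 3 to 47.5 at day 13, with 4.23 in growing and 1.15 in OIS. TGFB3 rose 2.28-fold to 3.35 FPKM, and TGFB1 differed by 0.12. THBS1, thrombospondin 1, which activates latent TGF-beta, rose from 414 to 1413 FPKM (3.41-fold), with 747 in growing. Of 7 measured targets 4 rose, among them COL1A1 (2.78-fold), TAGLN (2.47-fold) and TGFBI (2.35-fold). BHLHE40, a repressor, fell 2.31-fold to 5.61 FPKM. The 5 receptors and 7 SMAD and SKI genes measured all lay within 2-fold, with medians of 0.60 and -0.41.

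In the list for the BMP branch of the same family, BMP4 and GDF6 rose, and 3 of 4 targets fell. The ligand role as listed had 4 of 5 genes higher, but it also holds BMP1, a protease, and the stress cytokine GDF15. Of the antagonists 4 of 6 rose, among them FST and FSTL3, which bind activins. The whole list had 8 of 17 measured members higher and 3 lower, and 6 higher and 5 lower after rescaling to the same sum. The ID genes encode inhibitors of differentiation and are direct BMP targets. ID1 fell from 102 FPKM at day 3 to 26.3 at day 13 (3.76-fold), with 66 in growing and 15.7 in OIS. ID2 fell from 119 to 38 FPKM (3.08-fold), with 54.3 in growing and 4.81 in OIS, and ID3 from 105 to 45 FPKM (2.31-fold). For all 3, day 3 was the highest library and growing lay between the days. ID4 went from 1.69 to 0.367 FPKM, a difference of -0.98. The ligand BMP4 rose 5.65-fold to 14.4 FPKM and GDF6 6.18-fold to 9.13 FPKM. NOG, noggin, which captures BMPs, rose from 4.76 to 15.5 FPKM (2.86-fold), with 7.77 in growing. FST and FSTL3, which bind activins, rose to 332 and 95.6 FPKM (2.07-fold and 3.37-fold). BMP1, which despite its name is a procollagen protease, and GDF15 are the other genes listed as ligands that rose, and GDF5 differed by 0.43. BAMBI, a decoy receptor, rose 2.67-fold to 16.2 FPKM, and the locus joining FSTL1 with MIR198 went from 167 to 816 FPKM. GREM1, another antagonist, differed by 0.19.

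**Figure D3:**
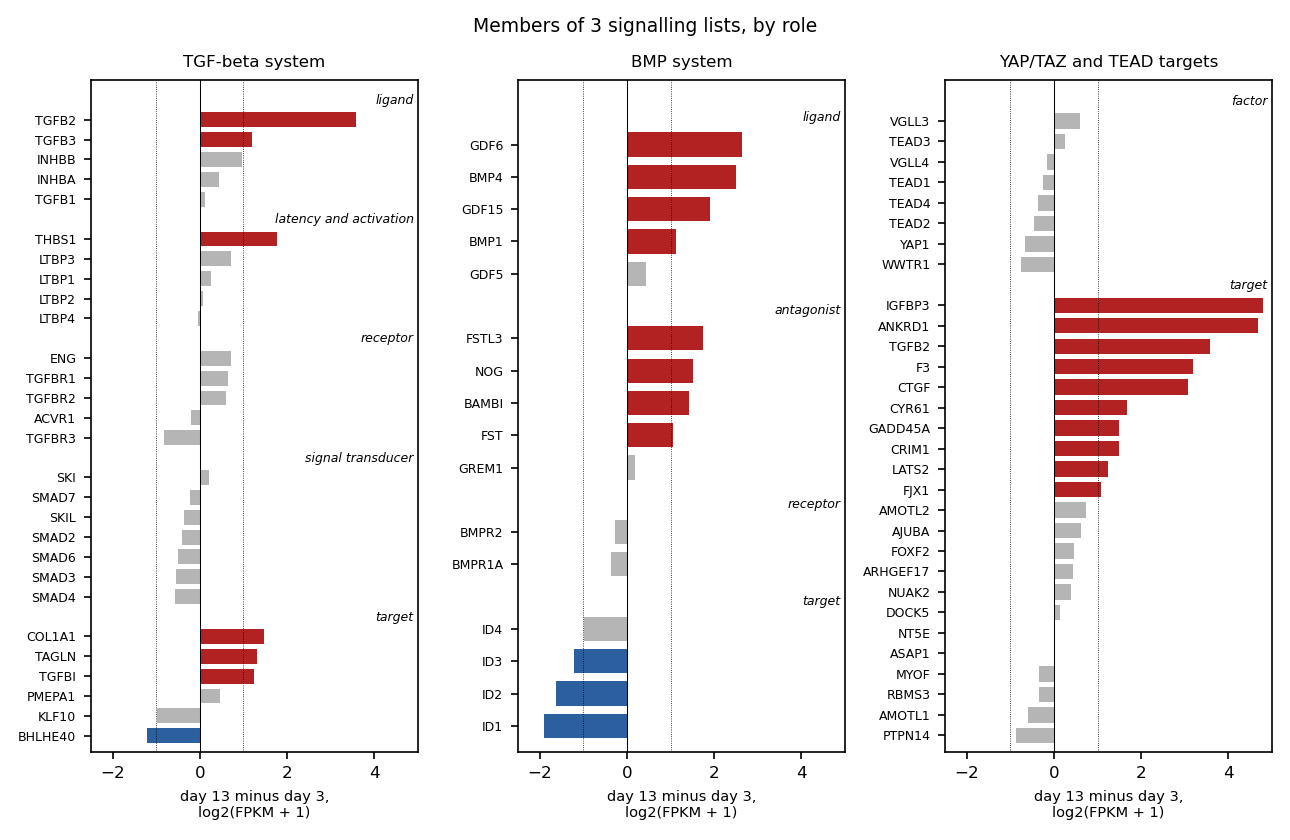
Bars give the difference between day 13 and day 3 on the log2(FPKM + 1) scale for measured members of the TGF-beta, BMP and YAP, TAZ and TEAD lists, grouped by role, with red for a rise and blue for a fall of at least 2-fold (dotted lines). Genes listed as ligands, THBS1, antagonists and targets hold the red bars, BHLHE40 and 3 ID genes the blue ones, and no receptor or signal transducer passes 2-fold.

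Of 22 measured targets of YAP, TAZ and TEAD 10 rose and 0 fell, and none of 8 factors and cofactors passed 2-fold. The list as a whole was 10 of 30 higher, or 8 higher and 1 lower after rescaling to the same sum. IGFBP3 and TGFB2 are members of this list too. ANKRD1, a cardiac ankyrin repeat protein that responds to stretch, rose 25.6-fold, from 4.31 FPKM at day 3 to 135 at day 13, with 8.07 in growing and 0.382 in OIS. CTGF, a matricellular growth factor, rose 8.4-fold, from 149.8 to 1267 FPKM, with 366 in growing and 197 in OIS. F3, tissue factor, the trigger of coagulation, rose 9.11-fold, from 33.9 to 317 FPKM, with 129 in growing and 344 in OIS. The matricellular protein CYR61 rose 3.17-fold to 429.7 FPKM, CRIM1 2.8-fold to 230.3 FPKM, and LATS2, a kinase that holds YAP in check, 2.36-fold to 32.6 FPKM. YAP1 and WWTR1, which encodes TAZ, differed by -0.66 and -0.75, and TEAD1 by -0.24.

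The promoters of ANKRD1 and CTGF are shown because these targets had large rises and hold the TEAD element more than once. Sequences are from RefSeq on GRCh38.p14, 5′ to 3′ on the strand of the gene, with the letters of the TEAD (MCAT) element, GGAATG, in capitals.
ANKRD1, chr10:90921202-90921322, minus strand: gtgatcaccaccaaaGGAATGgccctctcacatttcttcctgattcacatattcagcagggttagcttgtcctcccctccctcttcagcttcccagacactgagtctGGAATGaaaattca
CTGF, chr6:131951447-131951552, minus strand: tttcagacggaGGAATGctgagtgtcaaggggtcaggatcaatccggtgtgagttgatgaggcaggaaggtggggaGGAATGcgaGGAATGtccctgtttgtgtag
ANKRD1 held the letters at 220 and 128 bases before its start, and CTGF (CCN2 in RefSeq) at 169, 104 and 95 bases. Searched on both strands, the letters were in 4 of 7 matched promoters of list members that rose, in 4 of 15 of those that did not pass 2-fold, and in 14% of all promoters. The 15 include factors and cofactors, which are not targets: YAP1, WWTR1, TEAD2, TEAD3, VGLL3 and VGLL4. Of these YAP1 alone held the letters. With so few promoters the shares are a description only.

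Most collagen chains and some enzymes that mature collagen rose, from a day 3 level under that of growing. In the list of fibrillar collagens and their processing, 11 of 20 measured members rose and 1 fell (7 and 2 after rescaling to the same sum, 4 and 1 after quantile normalization), with a median difference of 1.09. The median level was 54.7 FPKM at day 3, 109 at day 13, 108 in growing and 83.7 in OIS. COL1A1, the main chain of type I collagen, went from 1862 to 5172 FPKM (2.78-fold), with 4156 in growing and 1012 in OIS. COL1A2, its partner chain, rose 2.19-fold to 2719.8 FPKM. The locus that joins COL3A1 with MIR3606, left out of the counts, went from 114 to 269 FPKM (2.35-fold higher), with 216 in growing and 132 in OIS. COL11A1, a minor fibrillar chain, rose 16-fold, from 4.36 to 84.7 FPKM, with 15.9 in growing and 7.23 in OIS. COL5A1 and COL5A2, chains that set the width of fibrils, rose 4.36-fold and 2.38-fold. The lysyl hydroxylase PLOD2 rose from 56.4 to 216 FPKM (3.78-fold) and PLOD1 to 345 FPKM (2.55-fold). LEPRE1 and P4HA1, prolyl hydroxylases, rose 2.63-fold and 2.21-fold, and SERPINH1, the collagen chaperone HSP47, 2.1-fold. PCOLCE, which enhances the cutting of procollagen, went the other way, from 122 to 30.3 FPKM (3.92-fold lower), with 226 in growing and 203 in OIS. BMP1, the protease it assists, rose 2.17-fold, from 24 to 53.3 FPKM.

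Of 13 other collagens 6 rose and 1 fell (4 and 1 rescaled). COL8A1, a short chain of network collagen, rose 8.83-fold, from 22.3 to 205 FPKM, with 92.8 in growing. The basement membrane chains COL4A1, COL4A2 and COL4A5 rose 2.83-fold, 2.23-fold and 4.39-fold, to 341, 379.7 and 24.8 FPKM. COL6A3, a chain of beaded-filament collagen VI, fell 3.32-fold, from 383 to 114 FPKM. Its partner chains COL6A1 and COL6A2 differed by -0.15 and 0.05, so the chains of collagen VI changed unequally.

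Elastic fibre and cross-linking genes had 8 of 18 measured members higher and 1 lower (6 and 1 rescaled, 5 and 1 with a pseudocount of 5), with a median difference of 0.94. The lysyl oxidases LOX and LOXL2, which cross-link collagen and elastin, rose from 222 to 687 FPKM (3.08-fold) and from 132 to 529 FPKM (4-fold). EFEMP1, fibulin 3, rose 4.86-fold to 93.2 FPKM, MFAP5, a microfibril protein, 4.8-fold to 5.35, and FBN1, fibrillin 1, 2.34-fold to 107. Elastin itself, ELN, was at 1.65 and 5.19 FPKM (2.34-fold higher). FBLN1, fibulin 1, fell 2.8-fold to 8.85 FPKM.

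Glycoproteins, laminins and proteoglycans split. Of 19 glycoproteins and laminins 5 rose and 3 fell, but 4 rose and 5 fell of 20 when rescaled, and the median difference of 0.17 turned to -0.094. SPARC, which binds collagen, rose from 441 to 1945 FPKM (4.4-fold), and POSTN, periostin, from 14.6 to 59.8 (3.91-fold), while FN1, fibronectin, differed by 0.14. LAMB1 rose 2.11-fold, and the alpha chains LAMA1 and LAMA2 fell 2.34-fold and 2.31-fold. CTHRC1, a secreted protein of matrix-making cells, fell 2.88-fold, from 54.3 to 18.2 FPKM. Among 18 proteoglycan and hyaluronan genes 4 rose and 3 fell. The small leucine-rich proteoglycans LUM and PODN rose 6.5-fold to 137 FPKM and 5.47-fold to 19.6 FPKM. Of the cell surface glypicans, GPC4 rose from 0.692 to 11.8 FPKM (7.57-fold) and GPC6 fell from 13 to 1.09 FPKM (6.72-fold). SDC1, syndecan 1, and HAS2, a hyaluronan synthase, fell 2.74-fold and 2.13-fold. ITGA11, the collagen receptor subunit alpha 11, rose 8.39-fold, from 3.93 to 40.3 FPKM, with 4.21 in growing and 12 in OIS. ITGA7 was the other of 14 measured integrins that rose (2.17-fold).

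Matrix proteases and genes of the plasminogen system rose in part. Of 23 measured members 10 rose and 2 fell (7 and 2 rescaled), with a median difference of 0.93. ADAMTS5 and ADAMTS12, which cut proteoglycans and other matrix proteins, rose 5.97-fold to 8.7 FPKM and 5.71-fold to 34.4 FPKM. RECK, a membrane inhibitor of metalloproteases, rose 3.83-fold to 68.3 FPKM. PLAT, tissue plasminogen activator, rose from 22.7 to 67.8 FPKM, with 111 in growing and 2242 in OIS. MMP1, interstitial collagenase, rose just past 2-fold, from 52.9 to 108 FPKM, with 416 in growing and 7849 in OIS. SERPINB2, the inhibitor PAI-2, rose 4.3-fold to 35.4 FPKM, with 1164 in OIS. MMP16 fell 3.09-fold and MMP17 fell just past 2-fold.

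Genes of the contractile apparatus rose in 13 of 38 measured members and fell in 0 (7 and 0 after rescaling to the same sum, and the same counts after quantile normalization), with a median difference of 0.62. ACTA2, smooth muscle actin, the marker of activated myofibroblasts, rose 4.73-fold, from 128 FPKM at day 3 to 608 at day 13, with 392 in growing and 62.3 in OIS. CNN1, calponin, rose 4.21-fold, from 43.8 to 188 FPKM, with 67.4 in growing and 6.68 in OIS. TPM1, a tropomyosin, rose from 295 to 874 FPKM (2.96-fold), with 419 in growing and 149 in OIS. In these genes, which were named among those that rose, day 13 was the highest library and OIS the lowest. CALD1, caldesmon, TAGLN, transgelin, and LMOD1, leiomodin, rose 2.96-fold, 2.47-fold and 2.91-fold. ACTG2, enteric actin, went from 242 to 507 FPKM (2.09-fold higher). The factors SRF, MYOCD, MKL1 and MKL2 lay between -0.71 and 0.60. Smooth muscle markers overlap with this list, and among them the defining genes MYH11 and DES were under 1 FPKM at both days. The CArG box, which SRF binds, was in 8 of 33 matched promoters of the list (24.2%), against 1.29% of all promoters, but in 1 of 12 of members that rose and 7 of 21 of members that did not pass 2-fold. The member that rose and held it was ACTG2, shown from RefSeq on GRCh38.p14 with both matches in capitals.
ACTG2, chr2:73892883-73892953, plus strand: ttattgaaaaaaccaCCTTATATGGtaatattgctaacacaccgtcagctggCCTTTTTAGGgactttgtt
The matches began 110 and 73 bases before its start.

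**Figure D4:**
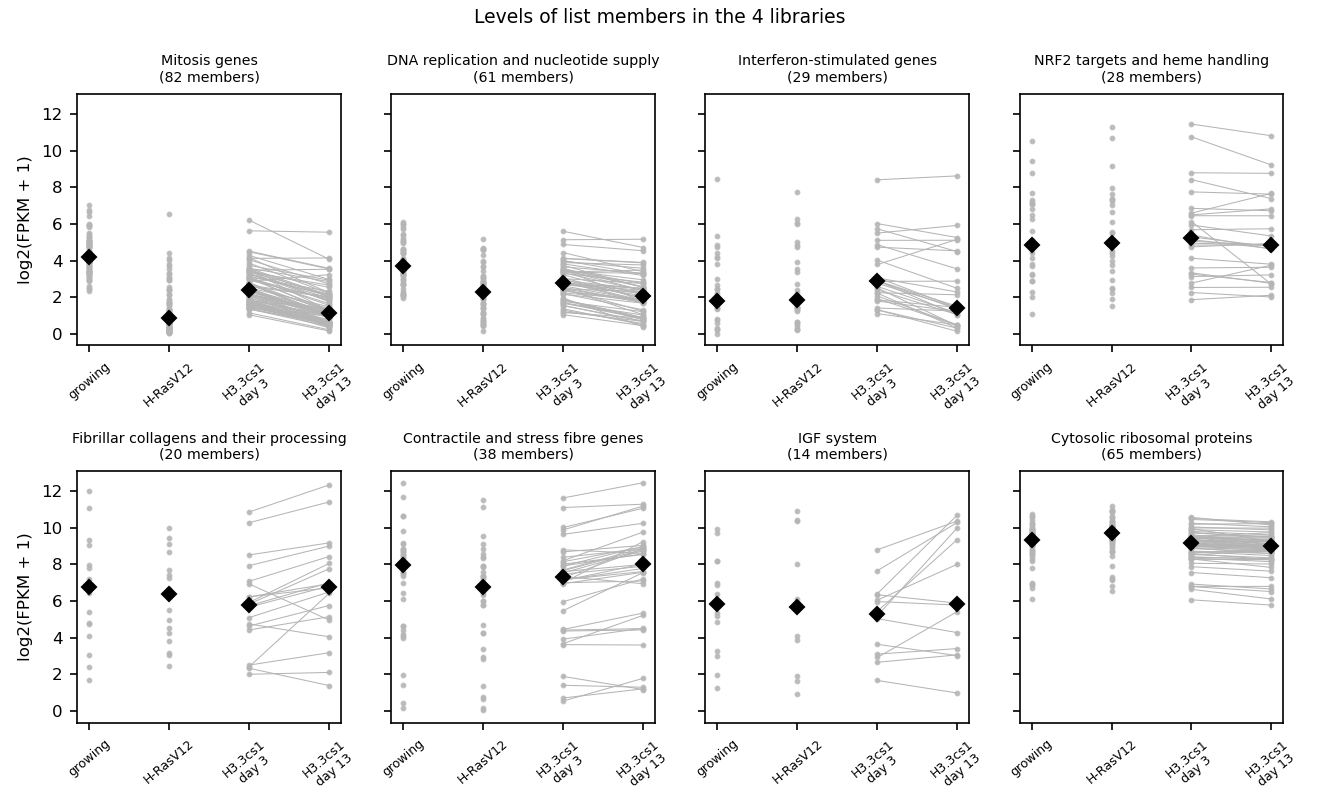
Levels of the measured members of 8 lists as log2(FPKM + 1) in the 4 libraries, with grey points for genes, grey lines from day 3 to day 13 and black diamonds for medians. Mitosis, replication and interferon-stimulated genes step down between the days, the collagen, contractile and IGF lists step up, and ribosomal protein genes move little.

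Peptides that act on vessels were among the largest rises. All 3 measured peptides rose (6 others were under 1 FPKM at both days), and of 7 receptors NPR3 alone did (2.36-fold). NPPB passed the filter through its day 13 value only, so it had to be higher there. EDN1, endothelin 1, a vasoconstrictor, rose 24.2-fold, from 1.67 to 63.8 FPKM, with 11.2 in growing and 1.94 in OIS. NPPB, the precursor of brain natriuretic peptide, rose 14.5-fold, from 0.18 to 16.1 FPKM, with 0.284 in growing and a listed value of 0 in OIS. ADM, adrenomedullin, rose 2.78-fold to 133 FPKM. MME, neprilysin, which degrades such peptides, fell 6.53-fold, from 9.83 to 0.659 FPKM, with 1.32 in growing and 59.9 in OIS. NPPB was near 0 in every library but day 13, and MME stood above growing at day 3 and below it at day 13.

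Of 15 measured ligands in the list of FGF, PDGF, VEGF and EGF factors, 4 rose. ANGPTL4, a secreted inhibitor of lipoprotein lipase, rose 14.8-fold, from 5.38 to 93.3 FPKM, with 23.1 in growing and 94.8 in OIS. HBEGF and NRG1, ligands of the EGF receptor family, rose 3.79-fold to 25.8 FPKM and 3.33-fold to 27.9, and FGF1 2.96-fold to 15.5. EGFR itself fell 2.13-fold, from 19.5 to 8.65 FPKM, at its locus with the highest level, while FLT1 and PDGFRB rose 2.67-fold and 2.03-fold. With the loci of each symbol summed, 5 of 22 members of the list rose and 0 fell, against 6 and 1. The fall of EGFR thus did not pass 2-fold in that setting, nor did at least 1 of the 6 rises. Of 13 genes of RAS and MAPK output, HBEGF rose, and ETV1, an ETS factor, and PHLDA1 fell 3.87-fold and 3.24-fold. In the WNT system 6 of 22 measured members rose and 2 fell. The receptor FZD7 rose from 37.8 to 110.1 FPKM (2.86-fold), the ligands WNT5A and WNT5B 2.08-fold and 2.13-fold, and the antagonist DKK1 2.38-fold to 67.7 FPKM. ROR2, a receptor of WNT5A, fell 2.23-fold to 1.37 FPKM. After rescaling to the same sum, 2 of 20 members of the WNT list were higher and 2 lower. In the Notch system the ligand JAG2 rose 2.67-fold to 3.96 FPKM, as 1 of 6 measured members. The locus that joins NOTCH4 with GPSM3 went from 3.52 to 9.33 FPKM (2.28-fold higher), and its value cannot be split between them. The locus that joins LFNG with MIR4648 differed by -0.05.

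Of 9 measured genes of retinoic acid and steroid handling 2 rose and 2 fell (2 and 4 of 10 rescaled). CYP26B1, which degrades retinoic acid, rose from 0.0226 to 6.45 FPKM (7.28-fold), with 0.121 in growing and 5.9 in OIS, so the gene was near 0 in growing and at day 3. DHRS3, which reduces retinal, rose 2.36-fold to 6.01 FPKM. ALDH1A3, which makes retinoic acid, fell 2.26-fold to 0.503 FPKM, and CRABP2, which carries it to the nucleus, 2.25-fold to 6.16 FPKM.

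Many measured interferon-stimulated genes were lower at day 13 than at day 3. Of 29 measured members 15 fell and 1 rose (17 and 1 after rescaling to the same sum), with a median difference of -1.18. With a pseudocount of 5 in place of 1, 3 of 29 fell and 1 rose, and the median was -0.53. Without the FPKM minimum 15 of 39 fell and 1 rose, and the median was -0.61. The minimum was set on day 3 and day 13 only, so growing and OIS had no part in choosing the members. A member could enter through its day 3 value alone, so the medians that follow can favour day 3 over growing and OIS. The median level was 6.28 FPKM at day 3 and 1.69 at day 13, beside 2.49 in growing and 2.65 in OIS. IFIT1, which binds foreign RNA caps, fell 4.19-fold, from 4.67 to 0.354 FPKM, with 0.703 in growing and 0.201 in OIS. EIF2AK2, the RNA-dependent kinase PKR, fell 2.9-fold, from 15.2 to 4.6 FPKM, with 7.08 in growing and 14.2 in OIS. IFI6 fell 2.36-fold, from 52.1 to 21.5 FPKM, with 16.4 in growing and 31.8 in OIS. For all 3, which were named among the members that fell, day 3 was the highest of the 4 libraries. SAMD9, an antiviral factor, IFI35, DTX3L, a ubiquitin ligase, and USP18, which removes ISG15 from proteins, fell 3.76-fold, 3.69-fold, 3.16-fold and 2.91-fold. MX1, a GTPase against influenza and other viruses, fell 2.73-fold from 2.79 FPKM. TRIM22, a ubiquitin ligase with antiviral action, was the member that rose, from 12.8 to 34.7 FPKM. The factors STAT2, IRF1 and IRF7 lay between -0.57 and -0.12. The background share of loci that fell was 3.54%.

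Many of these genes carry the interferon-stimulated response element (ISRE), and 3 promoters of genes that fell are shown with it. The sequences are from RefSeq on GRCh38.p14, 5′ to 3′ on the strand of the gene, with the ISRE letters, GAAA, any 2 bases and GAAA, or the reverse complement, in capitals.
IFIT1, chr10:89392493-89392543, plus strand: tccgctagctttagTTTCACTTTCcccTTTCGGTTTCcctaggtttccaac
IFIT3, chr10:89327827-89327897, plus strand: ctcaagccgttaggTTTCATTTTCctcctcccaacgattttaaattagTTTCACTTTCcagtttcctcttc
IFI6, chr1:27672262-27672362, minus strand: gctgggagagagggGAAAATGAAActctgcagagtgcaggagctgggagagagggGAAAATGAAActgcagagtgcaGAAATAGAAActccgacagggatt
IFIT3 went from 5.01 to 1.2 FPKM (2.74-fold lower). On both strands of the 300-base windows the ISRE letters were in 10 of 13 matched promoters of list members that fell, in 5 of 11 of those that did not pass 2-fold, and in 3.65% of all promoters. These genes are known in part by this element, so the shares describe the list.

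In antigen presentation 1 of 13 measured members rose and 2 fell (1 and 4 rescaled). PSMB8 and PSMB9, subunits of the immunoproteasome that interferon induces, fell 2.71-fold to 8.58 FPKM and 2.67-fold to 1.01 FPKM, as 2 of 9 measured genes of peptide supply. The locus that joins PSMB10, the remaining immunoproteasome subunit, with LCAT and SLC12A4 went from 39.6 to 91.9 FPKM (2.29-fold higher), and its value cannot be split between those genes. HLA-C, a class I heavy chain, rose from 58.8 to 167 FPKM (2.81-fold), and HLA-B, HLA-E and B2M differed by 0.73, 0.68 and 0.15. HLA genes share reads and have many alleles, so their single values are uncertain.

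Inflammatory cytokines and chemokines changed in both directions between the days. Of 18 measured members 2 rose and 2 fell (2 and 4 of 17 rescaled), beside background shares of 5.77% higher and 3.54% lower. IL6 rose 4.36-fold, from 0.86 FPKM at day 3 to 7.12 at day 13, with 3.07 in growing and 195 in OIS. IL8, a neutrophil chemokine, stood at 4.19 and 2.4 FPKM, with 3.65 in growing and 6433 in OIS. CCL2, a monocyte chemokine, rose 5.62-fold, from 22.3 to 130.1 FPKM, with 76.1 in growing and 57.1 in OIS. CXCL12, which guides stem cells and lymphocytes, fell 6-fold, from 20.4 to 2.56 FPKM, with 27 in growing and 0.236 in OIS. NFKBIA, the inhibitor of NF-kappaB, fell 2.25-fold to 5.91 FPKM. Members such as IL1A, under 1 FPKM at both days, were not compared. Complement and coagulation genes had 4 of 16 lower, among them PROS1, TFPI2 and C1R, and F3 higher (1 lower and 1 higher with a pseudocount of 5).

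Most measured genes of heme and iron handling were lower at day 13 than at day 3, and HMOX1 and FTH1 were highest at day 3. HMOX1, heme oxygenase 1, which degrades heme, had the largest fall of the single-gene loci ranked, 10.7-fold, from 69 FPKM at day 3 to 5.56 at day 13, with 12.8 in growing and 4.74 in OIS. FTH1, the heavy chain of the iron store ferritin, fell 2.89-fold, from 1719 to 594 FPKM, with 698 in growing and 1672 in OIS. SQSTM1, the autophagy adaptor p62, fell 2.05-fold, from 341 to 166 FPKM, with 137 in growing and 198 in OIS. Of 7 measured genes of heme and iron handling 6 lay below 0, among them, without passing 2-fold, the ferritin light chain FTL (-0.64) and the biliverdin reductases BLVRA (-0.54) and BLVRB (-0.78). Among classical NRF2 targets, NQO1, GCLM and GCLC differed by -0.22, -0.46 and 0.09, and TXNRD1, thioredoxin reductase, rose 2.11-fold to 202 FPKM. In the whole list 3 of 28 fell and 1 rose, and after rescaling to the same sum 4 fell and 0 rose. None of 7 metallothionein and zinc transport genes passed 2-fold.

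The genes of the unfolded protein and integrated stress responses that changed all rose. Of 46 measured members 5 rose and 0 fell (3 and 0 after rescaling to the same sum, 2 and 0 with a pseudocount of 5). The background share of loci that rose was 5.77%, and 39 members lay above 0. The 5 were targets of ATF4: STC2, the amino acid transporters SLC7A5 (2.76-fold) and SLC3A2 (2.03-fold), the stress factor ATF3 (2.37-fold) and asparagine synthetase ASNS (2.16-fold, from 11.5 to 26.1 FPKM). No ER chaperone of 15 and no tRNA synthetase of 11 passed 2-fold, and the joined locus of HSP90B1 and MIR3652 went from 4900 to 10787 FPKM. Among 17 heat shock genes, CRYAB, a small heat shock protein, rose 3.02-fold to 42.3 FPKM, DNAJB4 rose 2.53-fold to 91.7 FPKM, and HSPA1B, which is nearly identical to HSPA1A and so uncertain, fell 2.39-fold (2 higher and 3 lower rescaled).

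In the metabolic lists a few genes changed, beside background shares of 5.77% of loci higher and 3.54% lower. The glucose transporter SLC2A1 rose 5.2-fold, from 31.7 to 169 FPKM, with 94.7 in growing and 22.8 in OIS, and the lactate exporter SLC16A3 rose 3.43-fold, from 171 to 588 FPKM, with 405 in growing and 637 in OIS. They were the 2 of 20 glycolysis genes that passed 2-fold. Of 13 genes of the hypoxia response, ADM, ANKRD37 and P4HA1 rose, so the list had 5 higher and 1 lower (4 and 2 rescaled), and CA12, a carbonic anhydrase, fell 4.28-fold, from 15.6 to 2.89 FPKM. In cholesterol metabolism 2 of 18 enzymes of synthesis rose, among them DHCR7 of the last step (2.25-fold), but 0 of the list had a rise when rescaled. ABCA1, the sterol exporter, fell 3.51-fold, from 20.6 to 5.15 FPKM, with 4.69 in growing and 15.8 in OIS, and NPC1, which moves cholesterol out of lysosomes, fell 2.11-fold. Of 42 lysosome and autophagy genes ATP6AP1 (2.52-fold), FUCA1 (2.14-fold) and SMPD1 (2.01-fold) rose and 2 fell, NPC1 and SQSTM1 (1 and 2 rescaled). These counts, like the 2 higher and 1 lower of 26 in the whole cholesterol list, were near the background shares.

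Several large lists held no locus past 2-fold. None of 39 nuclear-encoded respiratory chain genes changed (differences from -0.40 to 0.58), nor did any of 65 ribosomal protein genes (-0.70 to 0.22), 31 proteasome subunits (-0.48 to 0.19) or 15 housekeeping genes (-0.70 to 0.83). Their medians were 0.02, -0.18, -0.22 and 0.01. Small differences were mostly downward in 2 of these lists, with 57 of 65 ribosomal protein genes and 24 of 31 proteasome subunits below 0. After quantile normalization the median of each of these 2 lists was -0.44, with -0.049 over all loci. Of 15 immediate early genes KLF2 and KLF4 fell 2.04-fold and 2.26-fold, and ATF3 rose.

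**Figure D5:**
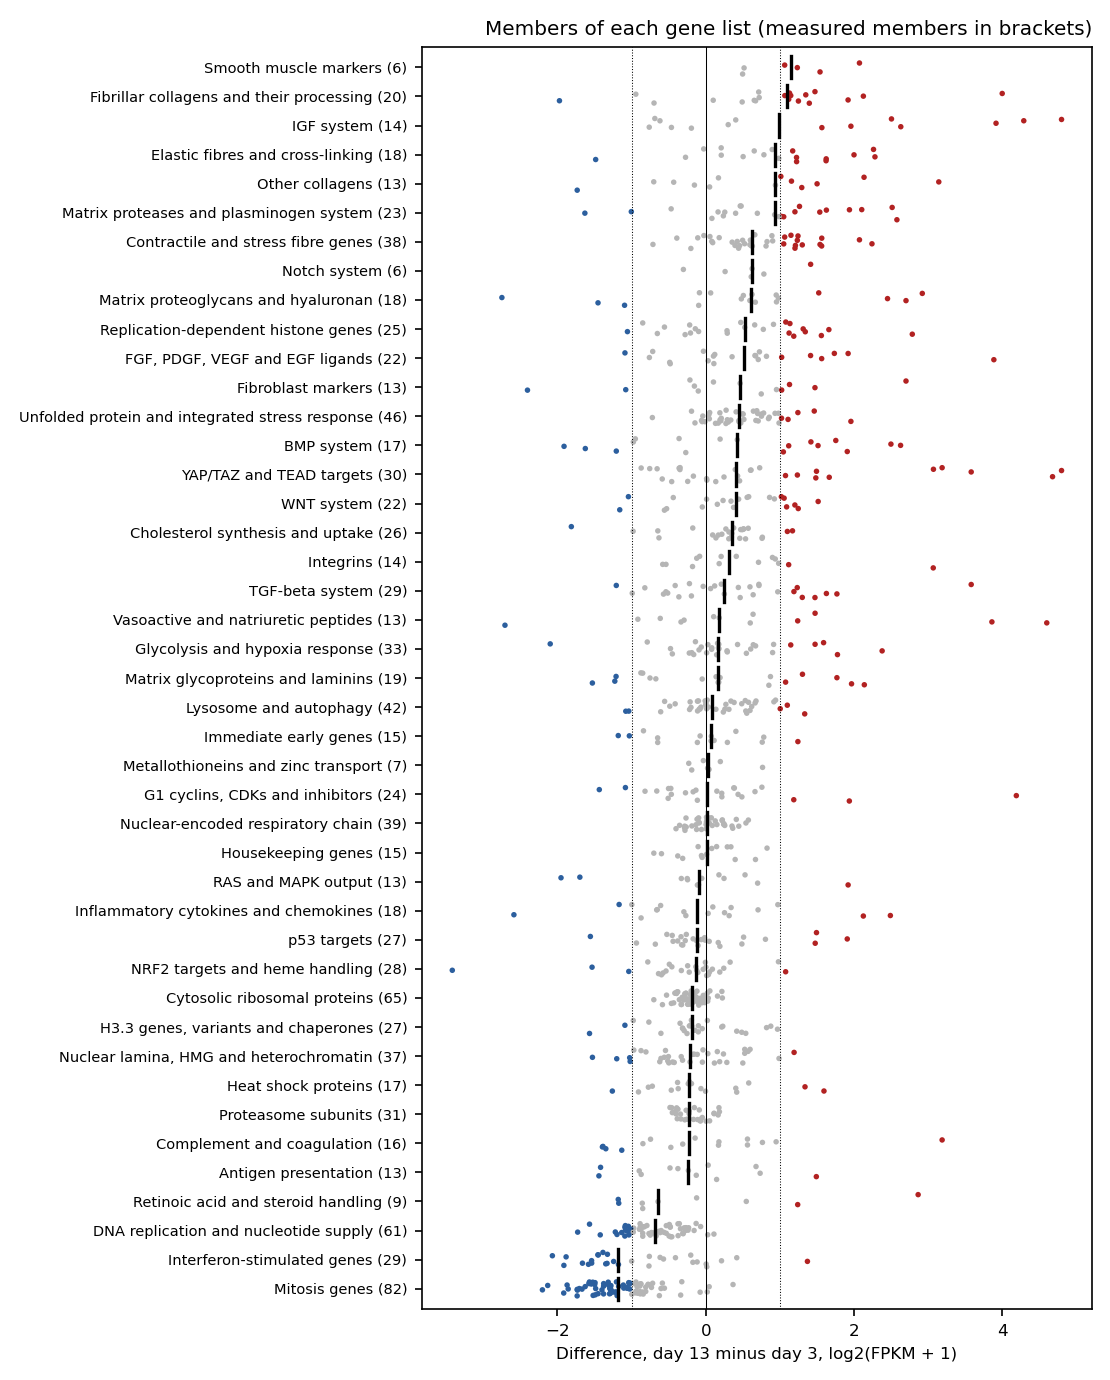
Each row is a gene list with at least 5 measured members, ordered by its median (black bar), and each point is a member, placed by its difference between day 13 and day 3 on the log2(FPKM + 1) scale. Rises of at least 2-fold are red and falls are blue. Mitosis genes (median -1.18) and interferon-stimulated genes (-1.18) are at the bottom, and smooth muscle markers (1.15) and fibrillar collagens (1.09) at the top.

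Other genes among the 15 largest rises belong to no list. CLDN1, a tight junction protein, rose 15.9-fold, from 4.24 to 82.3 FPKM, with 25.7 in growing and 94.7 in OIS. KISS1, the precursor of kisspeptin, rose 12.8-fold, from 5.43 to 81.5 FPKM, with 73 in growing and 1.73 in OIS. The KISS1 level at day 13 was thus near that of growing. NPAS1, a transcription factor, GSG1, and MYOZ2, a protein of the muscle Z-disc, rose 10-fold, 9.29-fold and 9.14-fold to 26.1, 17.4 and 9.35 FPKM.

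Among the 15 largest falls outside the lists, FABP5, a fatty acid binding protein, fell 5.32-fold, from 43.6 to 7.39 FPKM, with 53 in growing and 49.9 in OIS. BAALC fell from 10.4 to 0.794 FPKM, GNG2, a G protein gamma subunit, from 7.01 to 0.706, and NETO2, an auxiliary subunit of kainate receptors, from 13.7 to 2.15. For these 4 genes, picked for their fall, day 13 was the lowest of the 4 libraries and the day 3 value was near that of growing. SBSN, suprabasin, fell from 9.44 to 0.721 FPKM, with 0.884 in growing, and ITPR3, a calcium channel of the endoplasmic reticulum, from 12.6 to 2.16, with 4.49 in growing, so both were highest at day 3. CCDC109B, a subunit of the mitochondrial calcium uniporter, fell 4.17-fold, from 9.9 to 1.62 FPKM.

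Fibroblast markers were present at both days, and the defining markers of most other cell types were not. Of 13 measured fibroblast markers 4 rose and 2 fell (2 and 2 rescaled). LUM, PDGFRB and the collagen I chains rose, and PRRX1, a transcription factor of mesenchymal cells, fell 5.29-fold, from 19.1 to 2.79 FPKM, with 22.8 in growing and 15.6 in OIS. S100A4 fell 2.11-fold. Of 8 smooth muscle markers 4 of 6 measured rose, and the defining genes MYH11 (0.0843 and 0.627 FPKM) and DES (0.39 and 0.195 FPKM) stayed under 1 FPKM. The summed level of the smooth muscle list was 339.9 FPKM at day 3 and 795 at day 13, with 626 in growing and 135 in OIS. Epithelial EPCAM and CDH1 were under 1 FPKM at both days, while KRT18 rose 3.3-fold to 170.4 FPKM and KRT19 fell 2.88-fold to 3.13 FPKM. The summed epithelial list, most of it KRT18, was at 73.3 and 185 FPKM. Of 10 endothelial markers TEK was the 1 measured, at 1.04 and 0.749 FPKM. No leukocyte marker was measured as a single locus, 9 of 10 being under 1 FPKM at both days, with a summed level of 0.459 FPKM at day 3 and 0.461 at day 13.

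Loci listed at 0 and joined loci are given apart. In 54 compared loci 1 of the libraries listed 0, and all 54 counted as changed. ATP13A3, PAF1 and SAMD4B were listed at 0 at day 13 and at 38.5, 30.7 and 28.7 FPKM at day 3, and PLEC and ARHGEF12 were listed at 0 at day 3 and at 133 and 16.7 FPKM at day 13. Most of the others were small RNAs, chiefly small nucleolar RNAs, which a poly(A) library does not sample evenly. No fold is given for them, since 0 may stand for an estimate that failed. Of 588 joined loci 50 changed. Of those above 0 at both days the largest difference was that of CEACAM19 and PVR, from 25.3 to 204 FPKM, followed by that of SNHG12 with small nucleolar RNAs, from 26.1 to 152 FPKM, and the locus of LOC100130872 with SPON2 went from 146 to 29.1 FPKM.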

How the data were processed

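Poly(A) RNA-seq of 4 cultures of IMR90 fibroblasts was deposited as 1 table of FPKM values per library, with 26468 loci each, of which 2310 carry no gene name. The FPKM values are the authors' own. Cufflinks 2.1.1, TopHat2 2.0.3 and Bowtie2 are listed, with hg19, per the submitters' processing notes, which give no roles or order. The column headers of the tables are shifted by 1 name, so each file's library was taken from the deposited sample record.

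Loci with FPKM of at least 1 at day 3 or day 13 were compared on log2(FPKM + 1), with 2-fold as the size called a change. Loci were kept as the unit. No test was made, because each group has 1 library. The calculation, in Python 3.11.15 with numpy 2.4.6, pandas 2.3.3 and matplotlib 3.10.9, was tested on simulated data. The members and the gene lists were chosen with earlier results of these data known. Named genes are a fixed set of 15, the 15 largest rises and falls among single-gene loci above 0 at both days and at 5 FPKM or more at the higher, and in each list up to 6 members that changed most and 2 with the highest levels. Other genes named were chosen after their values were seen. A few list members are not reported here by name.

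Read totals are unknown. Multiples of low FPKM values did not settle the relative depth: of 741 loci under 0.06 FPKM at both days, 6.61% shared the most frequent ratio window of width 0.04. Alternatives covered the pseudocount, the FPKM minimum, scaling, the symbol sum and joined loci. Promoters are RefSeq windows of 300 bases on GRCh38.p14, 1 per gene, and 8827 compared loci matched.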

Additional observations from a re-analysis of the deposited data

How the results depend on the processing

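Each alternative changed 1 choice of the comparison of day 13 with day 3. The number of loci that rose was 677 and lay between 390 (pseudocount 5) and 916 (pseudocount 0.1). The number that fell was 415 and became 821 with a pseudocount of 0.1, 102 with a pseudocount of 5, 267 with a minimum of 5 FPKM and 756 with the named loci rescaled to the same sum. The share of changed loci that were higher was 62.0%, became 79.3% with a pseudocount of 5, and reversed to 37.4% after rescaling to the same sum. The 1092 changed loci became 1737 with a pseudocount of 0.1, 492 with one of 5 and 194 at 4-fold. Rescaling moved the median of all loci to -0.26, and the cause was not tested. Of 493 recomputed list medians 453 stayed within 0.25 log2 of the main value and 39 moved by more. The Notch median reversed, from 0.62 to -0.016 without a filter, where more low genes enter. Of 15 lists with a median of at least 0.5 in size, the other 14 kept their sign in every setting run. Lists with smaller medians turned more often: epithelial markers went from -0.45 to 0.56 at a minimum of 5 FPKM, and integrins from 0.31 to -0.0070 without a filter. Mitosis genes that fell were 50, between 5 (pseudocount 5) and 66 (pseudocount 0.1). Of 428 recomputed values of 39 named genes 426 kept their side of 2-fold. H3F3B passed it after centring (1.01) and LMNB1 did not pass it with a pseudocount of 5 (-0.72). No paired analysis was possible because each group has 1 library. With 1 library a group, no replicate could be left out, and read depth, which sets the counting error, is unknown.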
